A study of Mus musculus with 20 samples.

Results

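BMP response genes are genes whose transcripts commonly rise when cells receive bone morphogenetic protein (BMP) signals. The 10 genes described here were chosen by name: Bambi, the homeobox genes Msx1 and Msx2, the SMAD genes Smad6, Smad7 and Smad9, and the inhibitor of DNA binding genes Id1, Id2, Id3 and Id4. Each was found among the 54446 genes of the deposited bulk RNA tables. A gene was tested where its mean level over the 15 bulk libraries reached 1 TPM (a transcript's length-adjusted share of all transcripts), which left 14290 genes. Of the 10 BMP response genes, 8 were tested, while Id4 (mean 0.877 TPM) and Smad9 (mean 0.130 TPM) fell short. These are given as levels, with a separate fit without this filter. Msx2 (mean 1.48 TPM) passed although its group means at 96 h and in gastruloids were under 1 TPM.

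BMP ligands bind pairs of type I and type II receptor kinases at the cell surface. The receptors phosphorylate SMAD1, SMAD5 and SMAD9, which enter the nucleus with SMAD4 and change transcription. In the trunk of the embryo, BMP from the lateral plate and the dorsal side patterns mesoderm and neural tube, and secreted antagonists such as noggin limit its reach. The Id genes encode helix-loop-helix proteins without a DNA-binding region, which hold E proteins away from DNA. Msx1 and Msx2 encode homeodomain repressors. Smad6 and Smad7 encode inhibitory SMADs, and Bambi encodes a pseudoreceptor without a kinase domain, so all 3 act as feedback inhibitors. Smad9 encodes a receptor-activated SMAD.

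The structures were grown from mouse embryonic stem cells (strain F1G4) with 2 fluorescent reporters, T::H2B-mCherry for a mesoderm and tailbud factor and Sox2::H2B-Venus for a neural and pluripotency factor. All 5 groups received a pulse of 3 µM CHIR99021, a WNT pathway activator, from 48 h. The groups were gastruloids at 96 h (96h), gastruloids at 120 h without Matrigel (Gastruloid), and 3 kinds of trunk-like structures at 120 h: in Matrigel, a basement membrane gel (TLSMG), in Matrigel with further CHIR (TLSMGC), and in Matrigel with CHIR and LDN, an inhibitor of BMP type I receptors (TLSMGCL). Each group had 3 libraries, named biological replicates in the labels. A library held RNA of 10 pooled structures at 96 h or 6 at 120 h, picked for an asymmetric pole, all from 1 reporter line. The LDN dose and the hours of the Matrigel, second CHIR and LDN additions are not given in the sources used here. No group received LDN without CHIR.

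To show which sequences lie before these genes, the 250 bases upstream of the RefSeq start were read for the 7 genes found in the RefSeq promoter table of build GRCm38.p6. Id1, Smad7 and Bambi had no entry. On both strands, 4 motifs known as SMAD contacts were searched. These were the GC-rich site GGCGCC, its variant GGAGCC with the reverse complement written as GGCTCC, the short SMAD box AGAC, and the palindrome GTCTAGAC, which overlaps the box. GGCGCC occurred upstream of 3 of the 7 genes (Id2, Id4 and Smad9) and in 9.59% of all 32851 RefSeq promoters of the same length. GGAGCC occurred upstream of 6 of 7, all but Msx1, and in 26.0% of promoters. AGAC was found before 5 of 7 and in 82.9% of promoters, and GTCTAGAC before none of the 7 and in 0.167%. The windows of the 7 genes held 61.6% to 75.6% G and C, against a median of 52.4% over all 32851 promoters. The shares were not matched for this content, so an excess of GC-rich motifs beyond base composition was not tested. The following 5 stretches are printed because Id2, Id3 and Smad6 fell and Msx1 and Msx2 rose in the comparison of TLSMGC with TLSMG below. Both paralogs that rose are shown, since Msx2 held the letters and Msx1 did not. Whether the letters bear on the direction of change was not tested. They run 5′ to 3′ on the gene's strand, with GGCGCC or GGAGCC, read on either strand, in capitals.
Id2: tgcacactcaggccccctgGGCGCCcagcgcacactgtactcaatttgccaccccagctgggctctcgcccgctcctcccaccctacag
Id3: cctcgcatccgaGGCTCCgctgtcctcggc
Smad6: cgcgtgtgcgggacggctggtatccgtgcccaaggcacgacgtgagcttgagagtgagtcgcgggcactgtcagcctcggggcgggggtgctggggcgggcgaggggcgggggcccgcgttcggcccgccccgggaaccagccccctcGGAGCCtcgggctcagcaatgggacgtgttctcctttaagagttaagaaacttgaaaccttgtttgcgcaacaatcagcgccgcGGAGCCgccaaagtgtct
Msx1: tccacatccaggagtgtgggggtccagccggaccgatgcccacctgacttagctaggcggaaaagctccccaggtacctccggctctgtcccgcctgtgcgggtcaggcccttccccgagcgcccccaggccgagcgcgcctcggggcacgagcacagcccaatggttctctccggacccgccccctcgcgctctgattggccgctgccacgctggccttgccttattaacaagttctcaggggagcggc
Msx2: gGGCTCCcagcgcgcccctgccGGCTCCcc
The Id2 stretch is chr12:25096254-25096342 (minus strand), between annotated exons of the longer GENCODE M21 model, and its GGCGCC starts 231 bases upstream of the RefSeq start. The Id3 stretch is chr4:136143623-136143652 (plus strand), inside the first exon of the GENCODE model, and its match starts 187 bases upstream of the RefSeq start. The Smad6 stretch is chr9:64022060-64022309 (minus strand), outside annotated exons, with matches 102 and 18 bases upstream. The Msx1 stretch is chr5:37824586-37824835 (minus strand), also outside annotated exons, and these letters were not in this window. The Msx2 stretch is chr13:53472785-53472814 (minus strand), inside the first exon of the GENCODE model, with matches 33 and 12 bases upstream of the RefSeq start. A match is a description of letters and not a measured binding site.

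Across all tested genes, 13 of 15 libraries correlated best with a library of their own group. TLSMGC replicate 3 and TLSMGCL replicate 2 correlated best with each other (r = 0.9876), so the LDN differences of the BMP response genes and of the called pathway genes are given with and without both. Reads were paired, 75 bases long. Coverage per unit of FPKM, which scales with depth, ranged from 3.12 to 6.84 over the 15 libraries, so depth differed between libraries while exact totals were not analysed here. Read counts are not in the values used, so no counting interval is given. Markers used for trunk tissue were present: the 10 somite markers summed to 798 to 2560 TPM over the 15 libraries. At 96 h, Aldh1a2 alone gave 1056 to 1346 TPM of that sum, and Pax1 and Pax9 were under 0.1 TPM in all libraries. The 11 neural tube markers summed to 63.9 to 549 TPM over the 15 libraries, with Dbx2 listed at 0 in TLSMGC and TLSMGCL. In bulk RNA, fewer cells of a type and less RNA per cell cannot be told apart. The scale of comparison also mattered for all genes together. With TPM, the median log2 difference of all tested genes was 0.14 for TLSMG versus 96h, 0.13 for TLSMG versus Gastruloid, -0.16 for TLSMGC versus TLSMG and -0.18 for TLSMGCL versus TLSMG, and with median-of-ratios scaling these medians were -0.012, -0.019, -0.011 and -0.0019. The share of called genes that were higher went from 72.9% to 49.2%, from 80.0% to 51.6%, from 25.5% to 49.4% and from 20.7% to 48.8% in the same 4 comparisons. For TLSMGCL versus TLSMGC it went from 34.3% to 51.0%, and for Gastruloid versus 96h it was 50.4% with TPM and 62.4% with FPKM.

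The BMP response genes did not share 1 profile over the 5 groups. Id1, Id2, Id3, Smad6 and Smad7 had their highest mean in TLSMG, whereas Msx1, Msx2 and Bambi had theirs in TLSMGC, and Id4 was highest at 96 h. By limma's F test on log2(TPM + 1), all 8 tested genes were called over the 5 groups, and all 8 over the 4 groups at 120 h. The same tests called 73.5% and 62.7% of all tested genes. The adjusted p-values of Bambi, the largest of the 8, were 0.00549 and 0.00812.

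**Figure D1:**
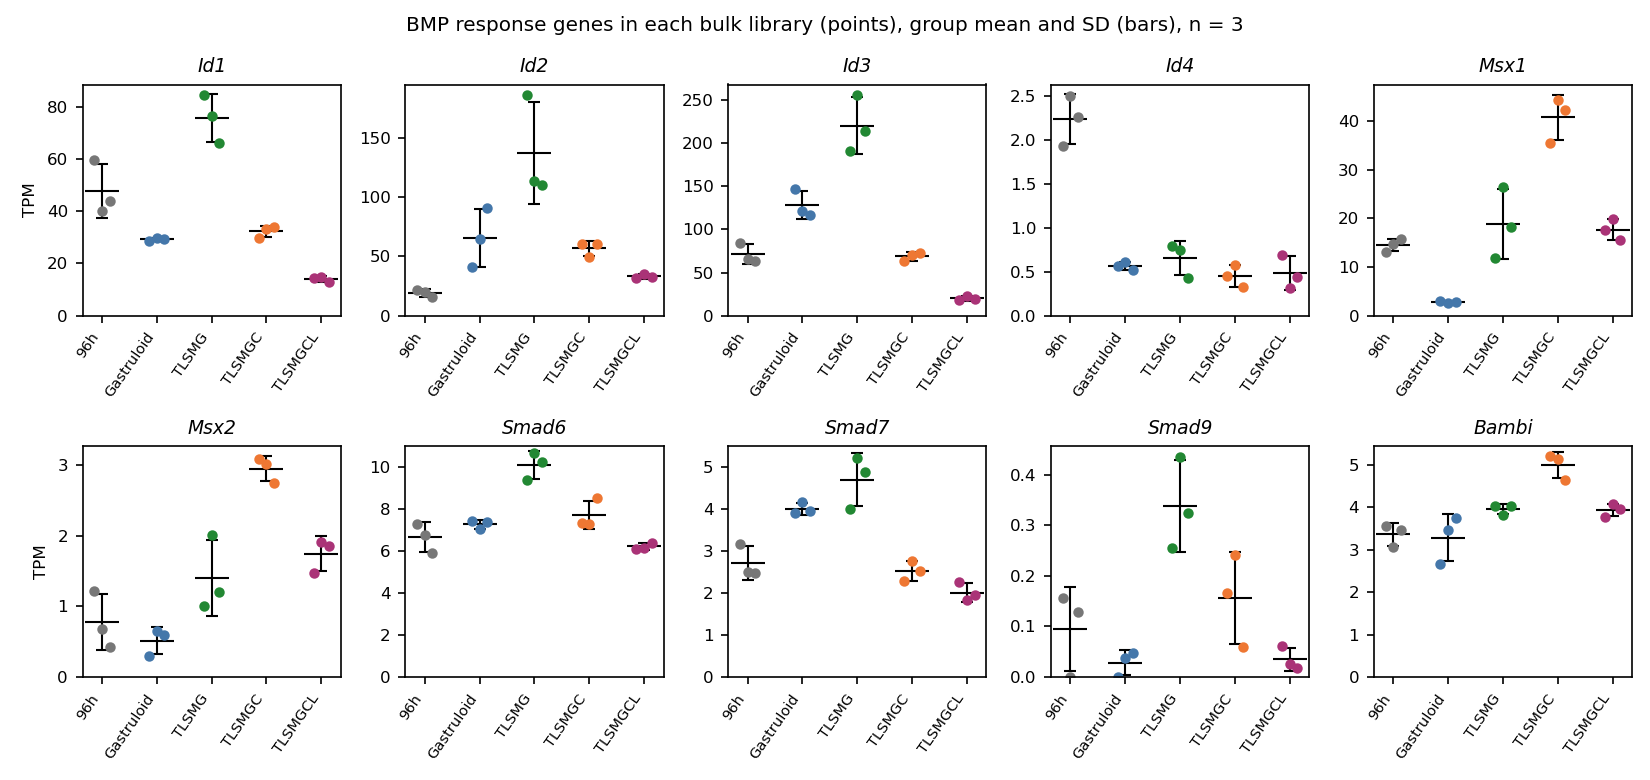
TPM of each BMP response gene (y axis, linear, a scale per panel) in each of 15 libraries (points) by group (x axis), with the group mean and SD over 3 libraries (bars). Id1, Id2 and Id3 peak in TLSMG (means of 75.8, 137 and 221 TPM), Msx1 and Msx2 peak in TLSMGC (40.7 and 2.95 TPM), and Id4 is highest at 96 h (2.23 TPM).

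Id3 was the most abundant member (chr4:136143497-136145755 in mm10, plus strand). Its level in the 3 libraries was 84.9, 66.1 and 63.0 TPM at 96 h, 147, 121 and 117 TPM in Gastruloid and 191, 256 and 214 TPM in TLSMG. It was 63.3, 70.1 and 73.2 TPM in TLSMGC and 17.9, 23.0 and 19.4 TPM in TLSMGCL. All 3 TLSMG libraries were above all others, and all 3 TLSMGCL libraries were below all others. In the order of means, 96h (71.3 TPM) and TLSMGC (68.9 TPM) were neighbours that did not differ beyond their spread (limma, adjusted p = 0.842), while each other pair of neighbours did.

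Id1 (chr2:152736251-152737410, plus strand) shared its highest group, TLSMG, and its lowest, TLSMGCL, with Id3, but was lower in Gastruloid than at 96 h. It measured 59.5, 40.0 and 43.9 TPM at 96 h, 28.6, 29.8 and 29.4 TPM in Gastruloid and 84.5, 76.7 and 66.1 TPM in TLSMG. In TLSMGC it measured 29.9, 33.2 and 33.8 TPM and in TLSMGCL 14.5, 14.7 and 12.8 TPM. No library of another group lay in the range of TLSMG or of TLSMGCL. Only the means of TLSMGC (32.3 TPM) and Gastruloid (29.3 TPM) were neighbours that did not pass (adjusted p = 0.411), although their libraries did not overlap.

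Id2 (chr12:25093799-25097140, minus strand) differed in where its lowest level lay. Its libraries gave 21.9, 19.5 and 15.5 TPM at 96 h, 41.0, 64.6 and 90.5 TPM in Gastruloid and 186, 113 and 110.2 TPM in TLSMG. They gave 59.98, 49.2 and 60.6 TPM in TLSMGC and 31.4, 35.3 and 32.4 TPM in TLSMGCL. The 96 h libraries were the lowest of all, and the Gastruloid libraries spread over a range (41.0 to 90.5 TPM) that held all 3 TLSMGC libraries. Neighbours that did not pass were Gastruloid and TLSMGC (adjusted p = 0.672) and TLSMGC and TLSMGCL (adjusted p = 0.187).

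Id4 was a low transcript that went the other way with time. At 96 h it measured 1.94, 2.50 and 2.26 TPM, above each of the 12 later libraries, which ranged from 0.316 to 0.790 TPM. Other annotated genes overlap Id4 on the opposite strand, and whether the submitters counted by strand is not given in the sources used here. In a fit with no filter on low values, used because Id4 was not tested otherwise, it was lower in Gastruloid than at 96 h by a log2 difference of -1.05 (adjusted p = 4.439e-05) and lower in TLSMG by -0.97 (adjusted p = 7.032e-05).

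The summed level of the 4 Id genes was 140.3 ± 24.2 TPM at 96 h, 224 ± 11.7 in Gastruloid, 434 ± 38.0 in TLSMG, 158 ± 8.41 in TLSMGC and 67.6 ± 4.91 in TLSMGCL (SD, n = 3). The mix within that sum also shifted. Id3 held 41.2% to 45.8% of the sum in the TLSMGC libraries and 27.8% to 31.3% in the TLSMGCL libraries, while Id2 held 32.1% to 39.0% and 48.2% to 49.8%. For both genes the libraries of these groups did not overlap. An exact two-sided permutation test gave p = 0.1 for each of these 2 shares and p = 0.7 for Id1, with 0.1 the smallest p that 3 libraries against 3 allow, so these 3 comparisons could not reach the 0.05 threshold.

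**Figure D2:**
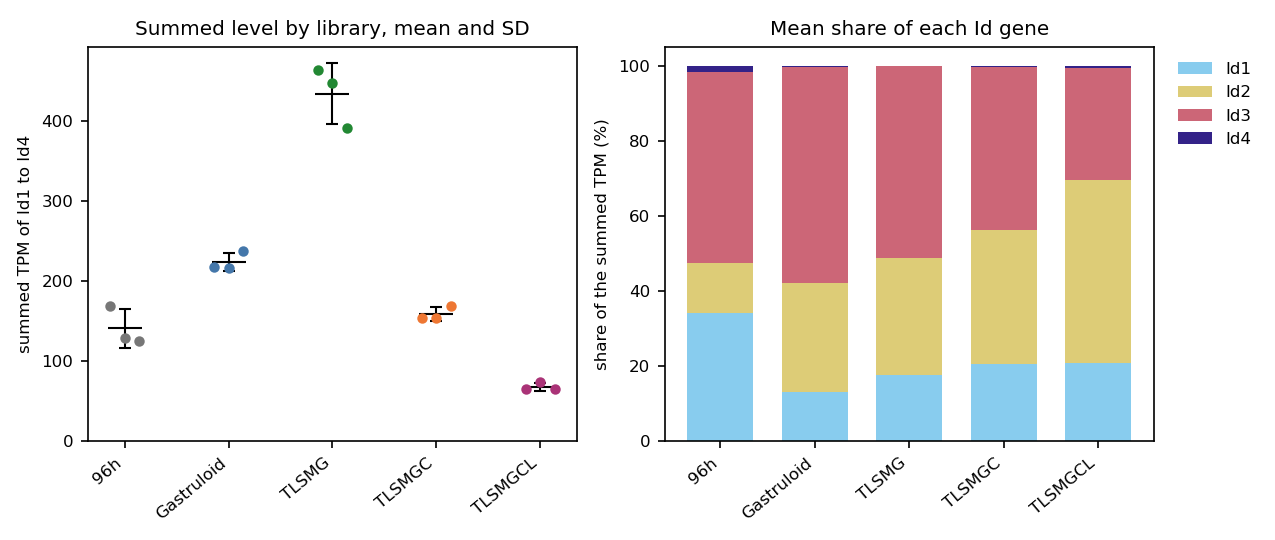
Left, summed TPM of Id1 to Id4 (y axis) in each library by group, with mean and SD over 3 libraries. Right, mean share of each Id gene in that sum in percent. The sum runs from 67.6 TPM in TLSMGCL to 434 TPM in TLSMG, and the Id3 share is 43.5% in TLSMGC and 29.6% in TLSMGCL.

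Msx1 (chr5:37820485-37824583, minus strand) had its highest levels with CHIR in Matrigel. It measured 13.1, 14.7 and 15.7 TPM at 96 h, 2.98, 2.56 and 2.75 TPM in Gastruloid and 11.9, 26.3 and 18.2 TPM in TLSMG. It reached 35.5, 44.3 and 42.3 TPM in TLSMGC and was 17.6, 19.9 and 15.5 TPM in TLSMGCL. All Gastruloid libraries lay below and all TLSMGC libraries above the rest, whereas 96h, TLSMG and TLSMGCL overlapped. The neighbours TLSMG and TLSMGCL (adjusted p = 0.921) and TLSMGCL and 96h (adjusted p = 0.321) did not differ beyond their spread.

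Msx2, the paralog of Msx1, was a low transcript that was also highest in TLSMGC and lowest in Gastruloid. Its libraries gave 1.22, 0.684 and 0.431 TPM at 96 h, 0.300, 0.645 and 0.601 TPM in Gastruloid and 0.999, 2.01 and 1.20 TPM in TLSMG. They gave 3.08, 3.02 and 2.74 TPM in TLSMGC and 1.46, 1.91 and 1.86 TPM in TLSMGCL. The TLSMGC libraries were the 3 highest of 15. No pair of neighbours in the order passed, with adjusted p-values from 0.0623 to 0.365, although groups farther apart in the order did differ, such as TLSMGC and TLSMG (adjusted p = 0.00515).

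The inhibitory SMADs varied less. Smad6 measured 7.30, 6.78 and 5.89 TPM at 96 h, 7.43, 7.04 and 7.36 TPM in Gastruloid, and 9.37, 10.7 and 10.2 TPM in TLSMG, then 7.34, 7.30 and 8.51 TPM in TLSMGC and 6.09, 6.16 and 6.40 TPM in TLSMGCL. Its TLSMG libraries were the 3 highest of 15. Smad7 measured 3.17, 2.49 and 2.47 TPM at 96 h, 3.89, 4.16 and 3.96 TPM in Gastruloid, and 4.00, 5.21 and 4.87 TPM in TLSMG, then 2.29, 2.76 and 2.53 TPM in TLSMGC and 2.26, 1.83 and 1.94 TPM in TLSMGCL. For both, TLSMG had the highest and TLSMGCL the lowest mean, but not every extreme stood apart from its neighbour in the order. Smad6 did not differ beyond its spread between TLSMGCL and 96h (limma, adjusted p = 0.514). Smad7 did not between TLSMG and Gastruloid (adjusted p = 0.227) or between TLSMGCL and TLSMGC (adjusted p = 0.433). Bambi spanned the narrowest range of the tested genes in group means, from 3.29 TPM in Gastruloid to 5.00 TPM in TLSMGC, where its libraries (4.63 to 5.21 TPM) lay above all others. Smad9 was highest in TLSMG, with 0.255, 0.435 and 0.324 TPM, and at most 0.241 TPM in any library of another group. It was listed at 0 in 96h replicate 2 and Gastruloid replicate 1. In the limma fit with no filter, Smad9 was higher in TLSMG than in Gastruloid (0.38, adjusted p = 0.00277) and at 96 h (0.29, adjusted p = 0.00692). Against TLSMG it was lower in TLSMGC (-0.21, adjusted p = 0.0433) and in TLSMGCL (-0.37, adjusted p = 0.00179). These calls rest on levels of at most 0.435 TPM.

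The first comparison asks what changed from 96 h to 120 h without Matrigel. In Gastruloid against 96h, Id2, Id3 and Smad7 rose and Id1 and Msx1 fell, so the Id genes moved in different directions. Of 8 tested genes, 3 were higher (20.8% of all tested genes were) and 2 were lower (20.5% of all). The largest shift was that of Msx1, 5.25-fold lower in mean TPM, with a log2 difference of -2.04 (SE 0.20, adjusted p = 2.83e-06). Id2 was 3.45-fold higher (1.68, SE 0.25, adjusted p = 0.000112), Id3 was 1.80-fold higher (0.84, SE 0.14, adjusted p = 0.000252) and Id1 was 1.63-fold lower (-0.67, SE 0.13, adjusted p = 0.000822). Smad7 differed by 0.44 (adjusted p = 0.00749). The median over the 8 was 0.042, against 0.0044 over all tested genes. Msx2 (-0.21), Smad6 (0.12) and Bambi (-0.033) did not pass, and the Bambi value changed sign with FPKM and with a GC and length correction.

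TLSMG against 96h, which adds Matrigel to the same interval, gave rises in all 3 abundant Id genes and in both inhibitory SMADs. Of 8 tested genes, 5 were higher (33.5% of all tested genes), while 12.5% of all tested genes were lower. Id2 was 7.20-fold higher in mean TPM (log2 difference 2.75, SE 0.25, adjusted p = 9.95e-07) and Id3 was 3.09-fold higher (1.62, SE 0.14, adjusted p = 5.75e-07). Id1, which was lower in Gastruloid than at 96 h, was 1.58-fold higher in TLSMG than at 96 h (0.67, SE 0.13, adjusted p = 0.00073). Smad7 (0.62, adjusted p = 0.00061) and Smad6 (0.54, adjusted p = 0.000326) also rose. The 8 genes had a median of 0.58, against 0.14 over all tested genes. Msx2 (0.44, 95% interval 0.049 to 0.82, adjusted p = 0.0623), Msx1 (0.29, -0.14 to 0.72, adjusted p = 0.254) and Bambi (0.19, -0.037 to 0.41, adjusted p = 0.16) did not pass. Without TLSMG replicate 1, Msx1 and Msx2 both passed, with adjusted p-values of 0.0102 and 0.0355, and Msx2 also passed without 96h replicate 1 (0.0159). Gastruloid and TLSMG share the 96h libraries in these comparisons.

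Matrigel itself is compared in TLSMG against Gastruloid, both at 120 h. Id1, Id2, Id3, Msx1, Msx2 and Smad6 were higher in TLSMG, 6 of 8 tested genes, when 31.5% of all tested genes were higher and 7.87% lower. Msx1 was 6.81-fold higher in mean TPM (log2 difference 2.33, SE 0.20, adjusted p = 1.34e-05) and ranked 22 by p-value among 14290 genes. Id1 was 2.59-fold higher (1.34, SE 0.13, adjusted p = 2.57e-05) and ranked 36. Id2 was 2.09-fold higher (1.08, SE 0.25, adjusted p = 0.00401), Id3 was 1.72-fold higher (0.77, SE 0.14, adjusted p = 0.00092) and Smad6 was 1.39-fold higher (0.42, SE 0.091, adjusted p = 0.003). Msx2 was 2.72-fold higher (0.65, SE 0.18, adjusted p = 0.0119), but it did not pass without Gastruloid replicate 1 (adjusted p = 0.0543) or without TLSMG replicate 2 (adjusted p = 0.0585). The median of the 8 was 0.71, against 0.13 over all tested genes. Smad7 (0.18, -0.064 to 0.43, adjusted p = 0.227) and Bambi (0.22, -0.0046 to 0.45, adjusted p = 0.111) did not pass, and Bambi was at -0.20 after a GC and length correction.

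Adding CHIR in Matrigel split the genes. In TLSMGC against TLSMG, Id1, Id2, Id3 and the inhibitory SMADs fell while Msx1 and Msx2 rose: 5 of 8 tested genes were lower (30.5% of all tested genes) and 2 were higher (10.4% of all). Id3 was 3.20-fold lower in mean TPM (log2 difference -1.66, SE 0.14, adjusted p = 8.3e-07). Id2 was 2.42-fold lower (-1.22, SE 0.25, adjusted p = 0.00146) and Id1 was 2.35-fold lower (-1.20, SE 0.13, adjusted p = 7.26e-06). Id4 differed by -0.19 in the fit with no filter and did not pass (adjusted p = 0.318). Against these falls, Msx1 was 2.16-fold higher (1.13, SE 0.20, adjusted p = 0.000573) and Msx2 was 2.10-fold higher (0.74, SE 0.18, adjusted p = 0.00515). Smad7 fell by 0.69 on the log2 scale (adjusted p = 0.000348). Smad6 fell by 0.35 (adjusted p = 0.00791), but it did not pass with median-of-ratios scaling (adjusted p = 0.102) or with a GC and length correction (adjusted p = 0.153). Bambi (0.27, 95% interval 0.046 to 0.50, adjusted p = 0.0525) did not pass, but passed as higher with those scalings (adjusted p = 0.00737 and 0.000873) and with FPKM (0.0103). The median of the 8 was -0.52, against -0.16 over all tested genes.

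**Figure D3:**
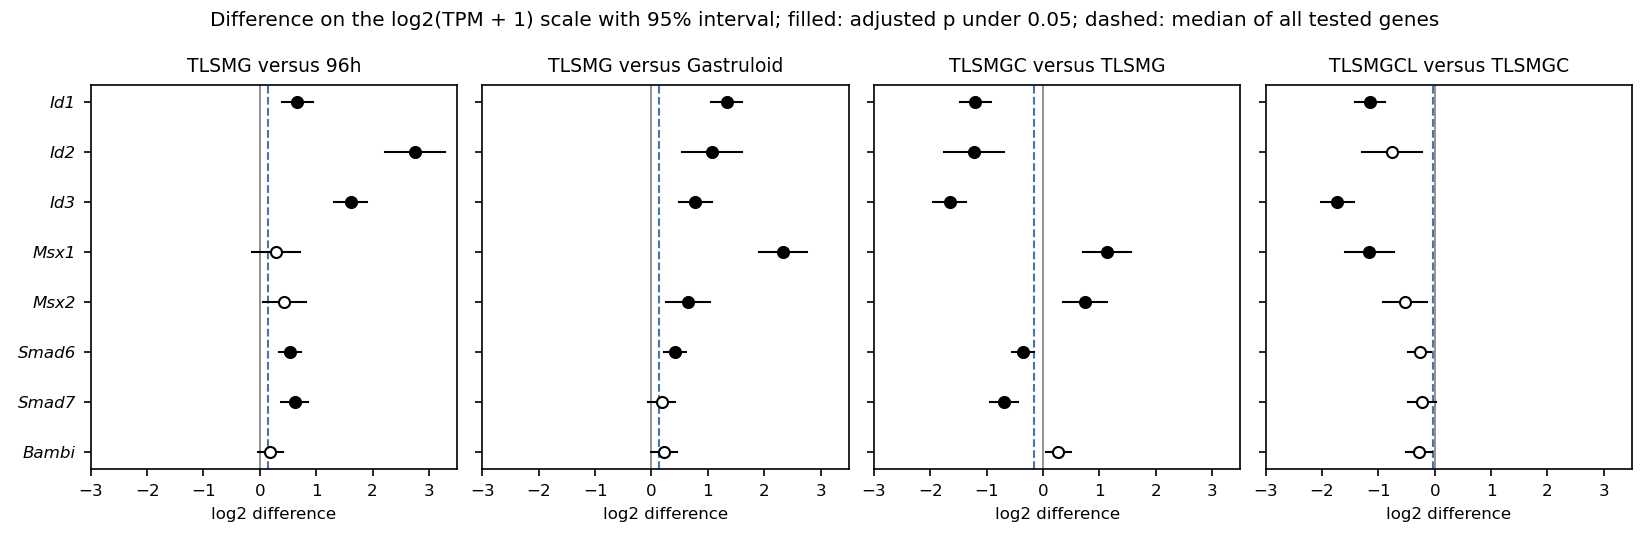
Log2 difference in TPM + 1 (x axis) of the 8 tested BMP response genes in 4 comparisons, with 95% intervals (lines), filled points at an adjusted p under 0.05 and the median of all 14290 tested genes (dashed). Id1, Id2 and Id3 lie to the right in both comparisons of TLSMG and to the left in both later comparisons, whereas Msx1 and Msx2 lie to the right for TLSMGC versus TLSMG.

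The effect of LDN was read from TLSMGCL against TLSMGC, groups that differ in the added BMP receptor inhibitor. In bulk RNA, a change within cells and a change in the mix of cells cannot be told apart here. Id3, Id1 and Msx1 fell, and each of the 8 tested genes was lower in all 3 TLSMGCL libraries than in any TLSMGC library. The fall was called in 3 of 8 tested genes, against 0.777% of all tested genes called lower and 0.406% called higher. Of all tested genes, 10.3% had lower libraries with no overlap. Id3 was 3.43-fold lower in mean TPM (log2 difference -1.73, 95% interval -2.03 to -1.44, adjusted p = 4.73e-05) and ranked 2 by p-value among 14290 genes. Id1 was 2.30-fold lower (-1.15, -1.42 to -0.88, adjusted p = 0.000509) and ranked 11. Msx1 was also 2.30-fold lower (-1.16, -1.59 to -0.73, adjusted p = 0.0125) and ranked 61.

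The other 5 genes were lower with LDN without passing the threshold. Id2 was 1.71-fold lower in mean TPM (log2 difference -0.75, 95% interval -1.28 to -0.23, adjusted p = 0.187), and it passed in a fit of these 2 groups alone (adjusted p = 0.0486). Msx2 was 1.69-fold lower (-0.53, -0.91 to -0.14, adjusted p = 0.21). The feedback inhibitors had smaller differences, with Bambi at -0.28 (-0.50 to -0.054, adjusted p = 0.261), Smad6 at -0.27 (-0.47 to -0.073, adjusted p = 0.208) and Smad7 at -0.23 (-0.47 to 0.017, adjusted p = 0.433). At an unadjusted p under 0.05 were 7 of the 8, all but Smad7, and 1850 of all 14290 tested genes. The median of the 8 was -0.64, against -0.039 over all tested genes. In the fit with no filter, Id4 differed by 0.029 and Smad9 by -0.16 (limma, adjusted p = 0.513 for Smad9), and neither was called.

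Without the 2 libraries that correlated best with each other, Id3 differed by -1.78 (adjusted p = 0.000459) and Id1 by -1.15 (adjusted p = 0.00704), both called. Msx1 then differed by -1.22 and did not pass (adjusted p = 0.0541). The others, not called with all libraries either, then differed by -0.75 (Id2), -0.61 (Msx2), -0.34 (Bambi), -0.20 (Smad6) and -0.18 (Smad7), with adjusted p-values of 0.289 to 0.674. Msx1 also did not pass without TLSMGC replicate 2 (adjusted p = 0.0604), TLSMGCL replicate 1 (0.0516) or TLSMGCL replicate 3 (0.0573), so its call did not hold in every fit. Its differences in these fits were -1.10, -1.16 and -1.07, against -1.16 with all libraries. Over 6 fits that each left out 1 library of the 2 groups, the Id3 difference ranged from -1.83 to -1.66 and the Id1 difference from -1.20 to -1.09, and both passed in each. The background moved with single libraries too: 169 of all tested genes were called, against 56 without TLSMGC replicate 2, 70 without TLSMGCL replicate 1 and 78 without TLSMGCL replicate 3.

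Against TLSMG, which had neither CHIR in Matrigel nor LDN, TLSMGCL had lower levels of Id1, Id2, Id3 and both inhibitory SMADs and no called difference in Msx1 or Msx2. In that comparison 5 of 8 genes were lower (35.6% of all tested genes), while 9.31% of all tested genes were higher. Id3 was 10.98-fold lower (log2 difference -3.39, SE 0.14, adjusted p = 9.03e-10), Id1 was 5.40-fold lower (-2.35, SE 0.13, adjusted p = 1.62e-08) and Id2 was 4.14-fold lower (-1.97, SE 0.25, adjusted p = 2.73e-05). Smad7 fell by 0.92 (adjusted p = 2.72e-05) and Smad6 fell by 0.62 (adjusted p = 0.000123). Msx1 (-0.028, 95% interval -0.46 to 0.40), Msx2 (0.21, -0.18 to 0.60) and Bambi (-0.0081, -0.23 to 0.22) did not pass, and Msx1 and Bambi were above 0 with median-of-ratios scaling (0.16 and 0.15). Bambi passed as higher after the GC and length correction (0.36, adjusted p = 0.0141). The median of the 8 was -0.77, against -0.18 over all tested genes.

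Set against the earlier groups, TLSMGCL lay below 96h for Id3 (log2 difference -1.77, adjusted p = 2.93e-07) and Id1 (-1.68, adjusted p = 2.22e-07), and above it for Id2 (0.78, adjusted p = 0.0216) and Msx2 (0.65, adjusted p = 0.0112). Msx1 stood 6.39-fold above Gastruloid in TLSMGCL (2.31, adjusted p = 1.46e-06) and 14.7-fold above it in TLSMGC (3.47, adjusted p = 2.97e-08). In TLSMGC, Id3 differed from 96h by -0.040 (95% interval -0.33 to 0.25) and was 1.86-fold below Gastruloid (-0.88, adjusted p = 0.000186). Of all tested genes, 40.7% and 39.5% were called between TLSMGC or TLSMGCL and 96h, and 42.2% and 36.1% between TLSMGC or TLSMGCL and Gastruloid.

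The other genes of the BMP pathway were taken from 7 lists by role, 61 genes of which 47 were tested. With LDN, 3 of the 47 were called higher and 2 lower, beside 0.406% and 0.777% of all tested genes, and their median was -0.060, against -0.039. Noggin (Nog), a secreted antagonist that traps BMP ligands, measured 7.51, 8.15 and 6.57 TPM in TLSMGC and 1.64, 1.67 and 2.21 TPM in TLSMGCL (log2 difference -1.57, SE 0.13, adjusted p = 5.74e-05). Gremlin 1 (Grem1), another secreted antagonist, measured 2.12, 2.59 and 2.07 TPM in TLSMGC and 0.0795, 0.0829 and 0.162 TPM in TLSMGCL (-1.55, SE 0.14, adjusted p = 7.03e-05). Both antagonists thus fell beside Id3 and Id1, and both passed in each of the 15 settings in which they were tested. In the other direction, Nbl1, also a BMP antagonist, rose from 6.34 to 15.0 TPM (1.15, adjusted p = 0.00935), the ligand gene Bmp3 from 6.80 to 16.5 TPM (1.21, adjusted p = 0.0309) and the ligand gene Bmp7 from 22.1 to 33.8 TPM (0.59, adjusted p = 0.0331). Without TLSMGC replicate 3 and TLSMGCL replicate 2, Nbl1 (1.16, adjusted p = 0.0551) and Bmp3 (1.24, adjusted p = 0.0778) did not pass, while Bmp7 (0.66, adjusted p = 0.0277), Nog (-1.60, adjusted p = 0.000952) and Grem1 (-1.58, adjusted p = 0.0021) did. Nbl1, Bmp3 and Bmp7 passed in 13, 9 and 10 of 16 settings, and none of the 3 was called without TLSMGC replicate 2 (adjusted p = 0.0523 for Nbl1, 0.123 for Bmp3 and 0.125 for Bmp7). Nbl1 passed, but Bmp3 and Bmp7 did not, without TLSMGC replicate 3, TLSMGCL replicate 1 or TLSMGCL replicate 3, with adjusted p-values of 0.078 to 0.117 for Bmp3 and 0.081 to 0.127 for Bmp7.

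None of the 10 tested receptor and co-receptor genes or 3 transducer genes was called with LDN, but the co-receptor gene Rgmb, at 10.8 TPM in TLSMGC and 17.1 in TLSMGCL (log2 difference 0.62, adjusted p = 0.0731), passed as higher with median-of-ratios scaling (adjusted p = 0.0252), FPKM (0.0315) and the GC and length correction (0.0112). Bmpr1a, a type I receptor, averaged 50.3 TPM in TLSMGC and 46.3 in TLSMGCL (log2 difference -0.13, 95% interval -0.34 to 0.086). Bmpr2, a type II receptor, averaged 6.98 and 5.47 TPM (-0.30, -0.62 to 0.011). Smad1 averaged 20.1 and 18.8 TPM (-0.095, -0.32 to 0.13), Smad5 43.4 and 39.8 TPM (-0.12, -0.35 to 0.10) and Smad4 75.3 and 70.7 TPM (-0.092, -0.21 to 0.027). Bmp4 averaged 3.58 and 2.57 TPM (-0.35, -0.88 to 0.17), Bmp2 0.798 and 0.920 TPM (0.11, -0.23 to 0.44), Chrd 2.33 and 3.63 TPM (0.49, 0.17 to 0.81, adjusted p = 0.153) and Fst 65.4 and 68.4 TPM (0.062, -0.20 to 0.33). The E protein genes Tcf3, Tcf4 and Tcf12, whose products Id proteins bind, differed by 0.066, 0.15 and 0.086, with none called.

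In TLSMGC against TLSMG, 29 of 47 pathway genes were lower and 6 higher, beside 30.5% lower and 10.4% higher of all tested genes. With median-of-ratios scaling, 26 were lower and 7 higher, beside 2685 lower and 2621 higher of all 14290 tested genes. The median over the 47 was -0.46, against -0.16 over all tested genes. Of 10 receptor and co-receptor genes, 8 were lower, as with that scaling. Acvrl1, a type I receptor of endothelial cells, fell from 9.67 to 1.46 TPM (log2 difference -2.19, SE 0.22, adjusted p = 4.08e-06). All 3 transducer genes were lower, and 2 of 3 with that scaling. Smad5 averaged 59.9 TPM in TLSMG and 43.4 in TLSMGC, Smad1 26.2 and 20.1 TPM, and Smad4 97.1 and 75.3 TPM. Among 8 tested other genes known to respond to BMP in some tissues, 5 were lower, led by Tbx2, a T-box repressor gene, which fell from 5.01 to 0.431 TPM (-2.07, SE 0.16, adjusted p = 4.89e-07). Antagonists moved both ways, 6 of 11 lower and 3 higher. Cer1 fell from 11.6 to 0.0869 TPM (-3.52, adjusted p = 1.13e-06), while Fst, which encodes follistatin, rose from 26.9 to 65.4 TPM (1.26, adjusted p = 4.06e-06) and Nog from 3.33 to 7.41 TPM (0.95, adjusted p = 8.06e-05). Of 5 ligand genes 3 rose, with Bmp7 going from 9.48 to 22.1 TPM (1.13, adjusted p = 7.56e-06).

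**Figure D4:**
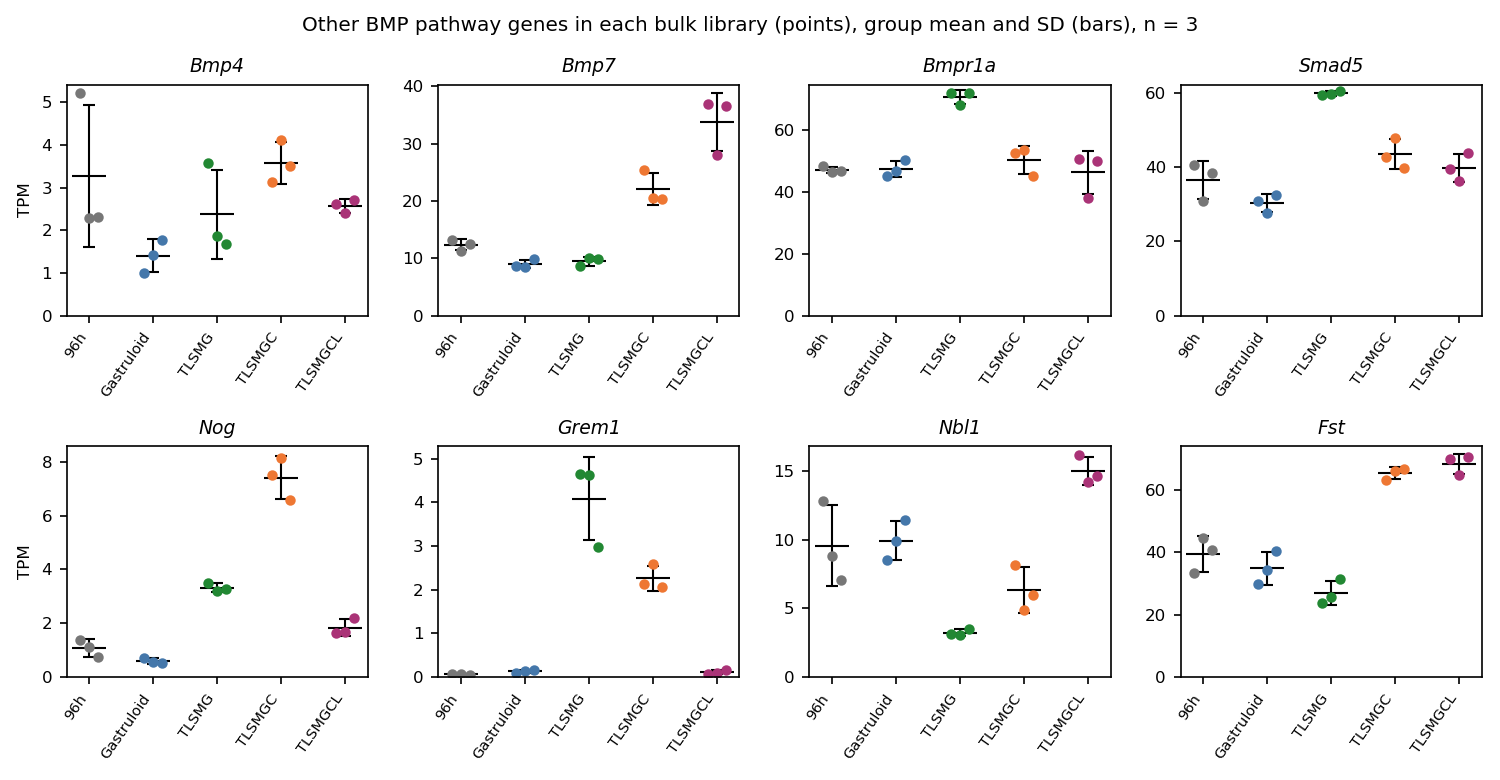
TPM of 8 other BMP pathway genes (y axis, linear, a scale per panel) in each library (points) by group (x axis), with mean and SD over 3 libraries (bars). Nog peaks in TLSMGC (7.41 TPM), Grem1 is near 0 outside TLSMG and TLSMGC, and Bmp7 and Nbl1 are highest in TLSMGCL (33.8 and 15.0 TPM).

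In TLSMG against Gastruloid, 20 of 47 pathway genes were higher and 6 lower, beside 31.5% higher and 7.87% lower of all tested genes, and their median was 0.32, against 0.13. With median-of-ratios scaling, 12 were higher and 9 lower, beside 2763 higher and 2594 lower of all 14290 tested genes, so that these counts lay near the background. Receptor and co-receptor genes were higher in 6 of 10 and lower in 1, but 3 and 3 after the GC and length correction. Grem1 rose from 0.129 to 4.09 TPM (log2 difference 2.15, SE 0.14, adjusted p = 1.75e-06), Gata2, which encodes a zinc finger factor, from 0.673 to 4.20 TPM (1.64, adjusted p = 4.01e-05) and Acvrl1 from 2.72 to 9.67 TPM (1.51, adjusted p = 0.000273). Nbl1 (-1.36, adjusted p = 0.000236), Bmp3 (-1.03, adjusted p = 0.00467) and Cer1 (-0.997, adjusted p = 0.018) fell. From 96h to TLSMG, 25 of 47 rose and 9 fell, beside 33.5% and 12.5% of all tested genes. With median-of-ratios scaling, 22 rose and 11 fell, beside 3194 and 3299 of all 14290 tested genes. Acvrl1 (3.24, adjusted p = 5.69e-08), Eng, an endothelial co-receptor (2.46, adjusted p = 2.25e-07), and Grem1 (2.24, adjusted p = 2.25e-08) led the rises, and Cer1 (-4.12, adjusted p = 1.33e-07), Dlx3 (-1.39, adjusted p = 1.02e-05) and Nbl1 (-1.28, adjusted p = 9.56e-05) the falls. From 96h to Gastruloid, 16 rose and 13 fell, beside 20.8% and 20.5% of all tested genes, with Bmp3 (2.25, adjusted p = 6.37e-06), Rgmb (1.91, adjusted p = 3.16e-07) and Acvrl1 (1.72, adjusted p = 2.68e-05) at the top. Cer1 (-3.12, adjusted p = 2.3e-06), Hand1 (-1.65, adjusted p = 0.0195, listed at 0 in Gastruloid) and Dlx3 (-1.60, adjusted p = 3.05e-06) were at the bottom. In TLSMGCL against TLSMG, 7 of 47 were higher and 29 lower, beside 9.31% and 35.6% of all tested genes. With median-of-ratios scaling, 9 were higher and 28 lower, beside 2734 and 2865 of all 14290 tested genes. In that comparison Nbl1 (1.92), Bmp3 (1.90) and Bmp7 (1.72) had the largest rises and Cer1 (-3.19), Gata2 (-2.27) and Acvrl1 (-2.20) the largest falls.

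Among the marker lists of other cell types, the endothelial sum and the neural crest and dorsal neural tube sum were, like the Id sum, highest in TLSMG. The primordial germ cell sum also had its highest mean there, at 38.4 TPM against 36.9 TPM in Gastruloid. The summed level of the 9 endothelial markers was highest in TLSMG (267 to 324 TPM), against 10.1 to 14.8 TPM at 96 h and 34.6 to 45.8 TPM in Gastruloid. With CHIR it was 25.1 to 84.5 TPM, and with CHIR and LDN 12.8 to 21.2 TPM. All 9 rose from 96h to TLSMG (33.5% of all tested genes did), and 8 of 9 were higher in TLSMG than in Gastruloid (31.5% of all). All 9 were lower in TLSMGC than in TLSMG (30.5% of all), and 3 of 9 (Cldn5, Etv2 and Tek) were lower with LDN (0.777% of all). In TLSMGC, the endothelial sum was 49.1, 84.5 and 25.1 TPM in replicates 1 to 3 while Id1 was 29.9, 33.2 and 33.8 TPM and Id3 was 63.3, 70.1 and 73.2 TPM. None of the 9 was under 0.1 TPM in all libraries of any group.

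Intermediate mesoderm markers (5 genes) were highest at 96 h, at a sum of 58.3 to 70.2 TPM. The sum was 6.61 to 7.30 TPM in Gastruloid and 5.41 to 7.45 TPM in TLSMGCL, and it lay between these and 96h in TLSMG (23.9 to 32.9 TPM) and TLSMGC (18.5 to 26.8 TPM). Of 4 tested, Pax2, Osr1 and Lhx1 were lower with LDN (0.777% of all tested genes were), and in TLSMGCL Pax8 was listed at 0 in every library. The 10 lateral plate and cardiac markers summed to 18.6 to 28.7 TPM in TLSMGC and 9.31 to 16.03 in TLSMGCL. With LDN, 1 of 6 tested (Foxf1) was lower, beside 0.777% of all tested genes. Hand1 averaged 0.771 TPM in TLSMGC and was listed at 0 in TLSMGCL, as in Gastruloid. Myl7 was listed at 0 in TLSMG, TLSMGC and TLSMGCL alike. The summed level of 11 neural crest and dorsal neural tube markers was highest in TLSMG, at 109 to 117 TPM. At 96 h it was 27.3 to 37.9 TPM and in Gastruloid 53.3 to 67.1 TPM. With CHIR it was 34.0 to 44.0 TPM, and with CHIR and LDN 39.1 to 51.6 TPM. Of the 11, 6 were under 0.1 TPM in all TLSMGC libraries and 7 in all TLSMGCL libraries. Tfap2b and Wnt1 were listed at 0 at 96 h and in both groups with CHIR, and Sox10 in TLSMGCL. Only 4 of the 11 were tested. Of these, 3 were higher and 1 lower in TLSMG than at 96 h, beside 33.5% and 12.5% of all tested genes. In TLSMG against Gastruloid 2 were higher (31.5% of all), in TLSMGC against TLSMG 2 were lower (30.5% of all), and none was called with LDN. The part of these cell types in the levels of the BMP response genes was not tested.

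**Figure D5:**
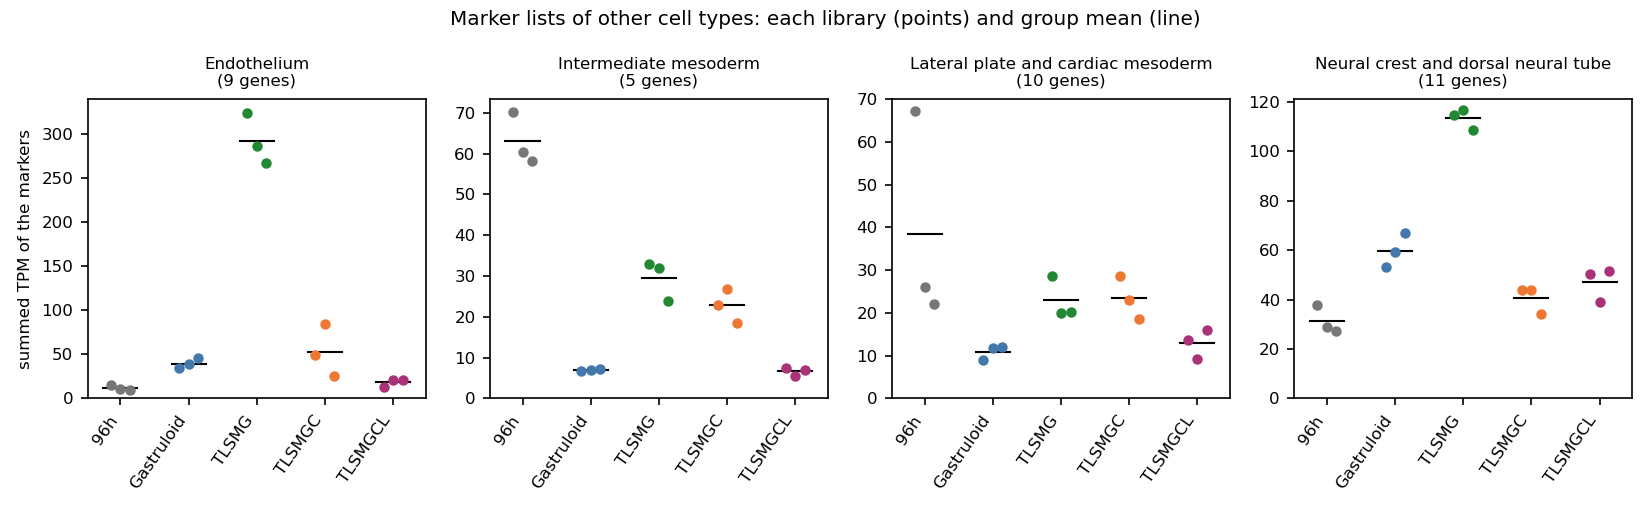
Summed TPM of 4 marker lists (y axis, linear, a scale per panel) in each library (points) by group (x axis), with group means (lines). The endothelial sum (267 to 324 TPM) and the neural crest and dorsal neural tube sum (109 to 117 TPM) peak in TLSMG as the Id sum does. The intermediate mesoderm sum is 18.5 to 26.8 TPM in TLSMGC and 5.41 to 7.45 TPM in TLSMGCL.

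Genes with the most similar profile were found for the 5 members whose group means spanned at least 1 on the log2 scale, by the root mean square difference of centred log2(TPM + 1) values over the 15 libraries. For Id1 these were Col14a1 (0.29), Gngt2 (0.30) and Nid1 (0.31), for Id2 Gm42778 (0.33), Elk3 (0.34) and Cd34 (0.36), and for Id3 Cpm (0.47), Ednra (0.48) and Usp29 (0.49). For Msx1 the nearest were Hoxd9 (0.50), Emx2 (0.63) and Unc5c (0.64), and for Msx2 Slc7a1 (0.20), Pdk1 (0.22) and Snhg12 (0.23). None of these was itself one of the 10 genes. The group means spanned 2.35 for Id1, 2.75 for Id2, 3.39 for Id3, 3.47 for Msx1 and 1.39 for Msx2 on the same scale.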

How the data were processed

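Bulk polyA RNA of 15 libraries was used, from stranded KAPA libraries per the labels' protocols. The authors' deposited StringTie tables give TPM, FPKM and coverage (a signal per base) per gene. The submitters' processing notes name cutadapt 2.4, STAR 2.7.3a, StringTie 2.0 and mm10, and counting by strand is not given in the sources used here. Single-cell samples (5) were not analysed here. Rows of 1 gene ID were summed. Genes with a mean of at least 1 TPM were tested with limma 3.58.1 (R 4.3.3) on log2(TPM + 1), all 5 groups in 1 fit with a mean trend, two-sided, with Benjamini-Hochberg adjustment over 14290 genes per comparison and a threshold of 0.05. A log2 difference on this scale understates the change of low genes, and TPM is a share, so a rise of 1 gene lowers others. The p-values rest on 3 pools per group. Fold values are ratios of mean TPM. All members were named. Other pathway genes were named for the up to 3 largest called rises and falls per comparison with at least 2 TPM, plus 11 genes named in advance for their levels. The members and lists were chosen with earlier results of these data known. The script for the fit was tested on simulated data. Alternatives were other pseudocounts, filters, scalings (median-of-ratios, FPKM, a GC and length correction), fits of 2 groups, a replicate block and leaving out each library. Promoter sequences came from RefSeq, and gene models from GENCODE M21.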

Additional observations from a re-analysis of the deposited data

How the results depend on the processing

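The number of BMP response genes called in each of the 6 comparisons stayed within 1.5 times its value under every alternative run. For TLSMGCL versus TLSMGC, this range includes 2 called in place of 3 without TLSMGC replicate 2, TLSMGCL replicate 1 or TLSMGCL replicate 3. Without both TLSMGC replicate 3 and TLSMGCL replicate 2, it was also 2. In TLSMGC versus TLSMG, 2 were higher and 5 lower, but 3 and 4 with median-of-ratios scaling and with the GC and length correction. In the F tests, 8 genes were called and 5 at a minimum mean of 5 TPM, where 5 were tested. Calls over all tested genes went from 5622 to 3280 with a GC and length correction (TLSMG versus Gastruloid), and from 169 to 42 in a fit of 2 groups and 279 with that correction (TLSMGCL versus TLSMGC). Other pathway genes called went, at a minimum of 5 TPM, from 29 to 17 (Gastruloid versus 96h), 26 to 16 (TLSMG versus Gastruloid), 36 to 23 (TLSMGCL versus TLSMG) and 5 to 3 (TLSMGCL versus TLSMGC), where fewer genes were tested. In the last comparison the count was also 3 with no filter, 2 in a fit of 2 groups, 8 with the GC and length correction and 3 without TLSMGC replicate 3 and TLSMGCL replicate 2, a choice made after seeing the data. Leaving out 1 library gave 56 to 198 called genes and 3 to 7 pathway genes (TLSMGCL versus TLSMGC) and 17 to 23 pathway genes (TLSMG versus Gastruloid, 17 without Gastruloid replicate 2). The cause of these moves was not tested. Values that were not called changed sign for Bambi and Msx1. In Gastruloid versus 96h, Bambi was at 0.028 with FPKM, 0.030 with the GC and length correction, and -0.11 to 0.077 when 1 library was left out. With that correction it was at -0.17 in TLSMG versus 96h and -0.20 in TLSMG versus Gastruloid. In TLSMGCL versus TLSMG, Bambi was at 0.15 with median-of-ratios scaling, 0.081 with FPKM and 0.36 with the correction, and Msx1 at 0.16, 0.091 and 0.096. With 1 library left out, Bambi ranged from -0.028 to 0.015 and Msx1 from -0.30 to 0.24.

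Libraries with the same replicate number did not deviate together. The mean correlation of their deviations ranged from -0.072 to 0.035 over the comparisons. No library of the TLSMGCL comparisons was nearest its own number (0 of 6), with at most 2 of 6 in any comparison. With 3 libraries per group, this check could not show whether libraries of the same number shared a preparation. A fit with the replicate number as a block gave 5, 5, 6, 7, 3 and 5 BMP response genes in the 6 comparisons, as without it, and 8 in both F tests. Over all tested genes it gave 122 calls in place of 169 for TLSMGCL versus TLSMGC.

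Exact read totals were not analysed here, and the lowest genes, Smad9 and Id4, were limited by their levels.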
